A study of Homo sapiens with 12 samples.

Results

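Gene expression in U937 cells after 4 h with JS-K was compared with that after 90 min with JS-K, to follow genes that start to change, continue to change or reverse between these exposure times. The groups were taken from the sample titles and hold 3 arrays each, 6 of the 12 arrays of the series. No measured value entered the choice of arrays. The 4 h group and the 90 min group had the same cell line and culture medium (RPMI with fetal bovine serum) and differed, by their labels, only in the exposure time. A vehicle group of 3 arrays, U937 cells given DMSO, was used to place each gene's 90 min level. The JS-K dose and the duration of the vehicle exposure are not given in the labels, and there is 1 vehicle group for all exposure times, so time in culture and time with JS-K cannot be told apart. The samples are named biological replicates, but nothing says that they came from separate cultures. The p-values therefore measure the spread between these samples, which may be technical.

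U937 is an established human leukemia line whose cells resemble immature monocytes and can be driven towards macrophage-like cells. JS-K is an arylated diazeniumdiolate prodrug. It reacts with glutathione, with glutathione S-transferases as catalysts, and then releases nitric oxide, so exposure both consumes glutathione and delivers a reactive nitrogen species. Cells meet such stress in layers: immediate early genes, many of them transcription factors of the AP-1 and EGR families, are transcribed within minutes and are usually shut off again, while antioxidant genes under the factor NRF2 and growth genes under MYC, among them those for building ribosomes, shift over hours.

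Values are the authors' log2 levels, and differences are 4 h minus 90 min on that log2 scale, given ± standard error (SE) of a limma fit with n = 3 and 3 arrays. A gene was called at a Benjamini-Hochberg adjusted p under 0.05 over all 19775 genes. Levels under 4 are low signal, where a change is compressed, and a difference with 1 end there is read as a lower bound. Each gene is given by its brightest probe set, and where the mean of its probe sets was also called but over 1.5 times larger or smaller, that difference follows in parentheses as the probe set mean. The arrays are scaled to each other, so a level is relative to the other transcripts of its array, and less RNA per cell and fewer cells cannot be told apart.

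The 4 h and 90 min arrays also differed outside the genes. The probe sets for poly-A spikes, which are control RNAs of bacterial genes, averaged 7.02 ± 0.15 at 4 h, against 3.08 ± 0.06 at 90 min (SD, n = 3 each), and 3.04 ± 0.05 on the vehicle arrays. Sample handling and exposure time cannot be told apart in any difference given here. Among the 4 h arrays, replicate 2 stood apart. It had a median of 3.10 and an upper quartile of 6.20, against 2.91 to 2.93 and 6.57 to 6.59 on the other 4 h arrays, and a 3′ minus 5′ difference of the ACTB probe sets of 1.15, against 0.81 and 0.93. Its correlation with the other 4 h arrays was 0.993, whereas theirs with each other was 0.998. Of 8 measured markers of U937 cells, 7 lay over 4 on all 6 arrays, CD45 (PTPRC) and lysozyme (LYZ) among them, and MPO, the gene for myeloperoxidase, lay at 2.40 to 2.51 at 4 h and 2.34 to 2.40 at 90 min. Of these 8, PTPRC was called higher at 4 h than at 90 min (0.62 ± 0.10, adjusted p = 0.00204). FUT4 was called lower (−0.61 ± 0.08, adjusted p = 0.000319). Of 41 measured markers of T, B, erythroid, epithelial and stromal cells, 36 lay under 4 on every array and none was called. Another 3 lay over 4 on every array. PECAM1 had means of 9.85 at 4 h and 10.01 at 90 min. The B cell marker PAX5 had means of 4.92 and 5.67, and the stromal marker COL1A1 5.37 and 5.24.

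Between 90 min and 4 h, 2092 of 19775 genes (10.6%) were called. At 4 h, 658 genes (3.33%) were higher than at 90 min and 1434 (7.25%) were lower. Most of the changes were small: 111 of the higher and 178 of the lower genes differed at least 2-fold, and 10 and 7 at least 4-fold. Among the 9551 genes with a mean level of at least 4, 6.42% were higher and 14.7% lower in the fit over all genes. Counts of called list members below are to be read beside these shares, or beside 3.33% and 7.25% for lists with many genes under 4. The median difference was 0.05 over all genes and −0.08 over those with a mean of at least 4. No overlap between the 4 h and 90 min arrays was seen for 51.7% of genes, with the 4 h arrays above in 38.1% and below in 13.6%, so the lack of overlap alone marks no gene.

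The share of higher genes among those called, 31.5%, depended on scaling. It was 46.4% (1101 higher, 1271 lower) after quantile normalization and 21.0% (337 higher, 1270 lower) with array medians subtracted. Without replicate 2 of the 4 h group it was 43.1% (785 higher, 1037 lower). The count of lower genes was 921 without replicate 1 and 915 without replicate 3 of the 90 min group.

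Each called gene was placed by its 90 min level against vehicle, where 9.64% of genes were called, 796 (4.03%) higher at 90 min and 1111 (5.62%) lower. Both comparisons use the 90 min arrays, so an array that is off at 90 min moves them in opposite directions. Most genes that moved after 90 min had not been called by then: 435 genes (2.20%) started to rise and 1156 (5.85%) started to fall. A further 143 genes (0.723%) continued to rise and 146 (0.738%) continued to fall. Reversals were fewer, with 132 genes (0.668%) that had risen by 90 min and then fell, and 80 (0.405%) that had fallen and then rose. Of the 132, 91 were not called against vehicle at 4 h, 20 were still above it and 21 were below it. Of the 80, 56 were not called against vehicle at 4 h, 13 were still below it and 11 were above it. Over all genes, 40.6% were called at 4 h against vehicle, 23.9% higher and 16.6% lower, so these calls alone set no reversed gene apart. The remaining genes called at 90 min, 521 higher and 885 lower than vehicle, were not called between 90 min and 4 h.

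The class sizes rest on few arrays. Without replicate 2 of the 4 h group, 723 genes started to fall and 125 fell and then rose. Leaving out replicate 1, 2 or 3 of the 90 min group gave 81, 81 or 75 genes that continued to fall, 68, 84 or 76 that rose and then fell, and 41, 38 or 53 that fell and then rose. Genes that continued to rise numbered 92 without replicate 2 and 86 without replicate 3 of the 90 min group, and 764 genes started to fall without that replicate 3. Without vehicle replicate 2, 80 genes rose and then fell. Without vehicle replicate 3, 82 did so, 93 continued to fall and 51 fell and then rose.

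**Figure D1:**
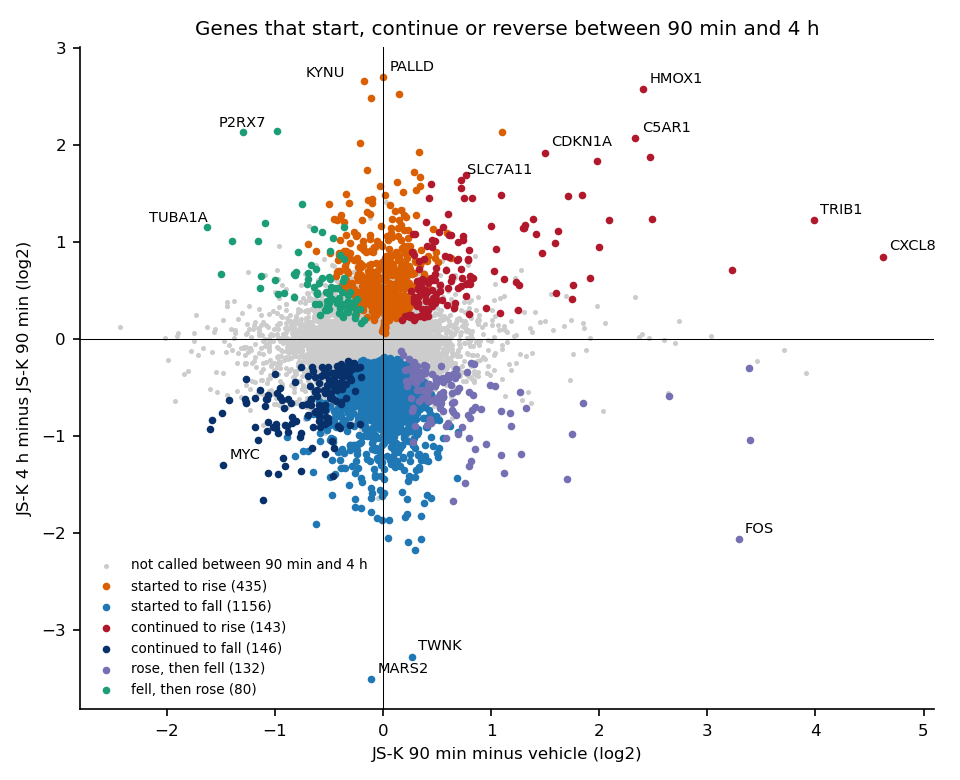
Log2 difference of JS-K 4 h minus JS-K 90 min (vertical axis) against JS-K 90 min minus vehicle (horizontal axis), 1 point per gene (19775 genes), coloured by class; both axes use the 90 min arrays. On the vertical axis PALLD stands at 2.70 and MARS2 at −3.51, and FOS stands at 3.29 on the horizontal and −2.07 on the vertical axis.

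Among genes that started to rise after 90 min, PALLD and KYNU had the largest differences. PALLD, which encodes the actin-binding protein palladin, had levels of 8.36, 8.49 and 8.58 at 4 h, against 5.66, 5.64 and 6.03 at 90 min. KYNU, the gene for kynureninase of the tryptophan pathway, had 10.29, 10.30 and 10.21 at 4 h, against 7.60, 7.52 and 7.71 at 90 min. For both genes every 4 h array lay far above every 90 min array, and the vehicle arrays, at 5.56 to 5.94 for PALLD and 7.79 for KYNU, lay close to the 90 min arrays. PALLD rose 6.48-fold (2.70 ± 0.13, adjusted p = 7.73e-07) and KYNU 6.31-fold (2.66 ± 0.08, adjusted p = 3.83e-09). MAML2, a coactivator of Notch signalling, rose 5.73-fold (2.52 ± 0.21) and DAAM1, a formin that assembles actin filaments, 5.59-fold (2.48 ± 0.12, probe set mean 1.54). FPR1, the receptor for formyl peptides on phagocytes, had levels of 5.73, 5.14 and 5.69 at 4 h, against 4.24, 2.51 and 3.43 at 90 min. Its arrays did not overlap, but the 90 min arrays were spread widely, and its rise of 2.13 ± 0.33 (probe set mean 1.18) from levels near or under 4 is a lower bound. DUSP16, a phosphatase of MAP kinases, rose by 2.01 ± 0.29 (probe set mean 1.23), RAB7B, a small GTPase of late endosomes, by 1.93 ± 0.14, and TBC1D9, a protein with a domain of Rab GTPase regulators, by 1.74 ± 0.23 (probe set mean 0.63). None of these 8 genes was called between 90 min and vehicle, and all 8 remained called in each of the 15 alternatives tried per gene. FPR1 came close, with a difference of 1.10 ± 0.33 between 90 min and vehicle (adjusted p = 0.0621). All its 90 min arrays lay above the vehicle arrays (2.14 to 2.45), so a start after 90 min is not shown for it.

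The largest falls of the comparison were those of MARS2 and TWNK. MARS2, which encodes the mitochondrial methionyl-tRNA synthetase, had levels of 5.01, 4.45 and 4.94 at 4 h, against 8.17, 8.38 and 8.37 at 90 min. TWNK, the gene for the helicase that unwinds mitochondrial DNA for replication, had 4.92, 3.44 and 5.35 at 4 h, against 7.86, 7.71 and 7.96 at 90 min. In both genes the groups were far apart and the 90 min arrays lay near vehicle, which averaged 8.41 for MARS2 and 7.58 for TWNK. MARS2 was 11.4-fold lower at 4 h (−3.51 ± 0.21, adjusted p = 1.91e-06) and TWNK 9.68-fold lower (−3.27 ± 0.38, adjusted p = 0.000192). Replicate 2 of the 4 h group was the lowest array for both, and without it the differences were −3.33 and −2.71.

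Smaller falls followed among the leading genes that started to fall. URB2, a nucleolar protein of ribosome assembly, fell by 2.18 ± 0.17 and DHX33, a nucleolar helicase, by 2.06 ± 0.20. DHODH, the mitochondrial enzyme of pyrimidine synthesis, had levels of 3.36, 3.19 and 3.63 at 4 h, against 5.48, 5.32 and 5.10 at 90 min. All its 4 h arrays were under 4, so its fall of 1.91 ± 0.21 (probe set mean −0.79) is a lower bound. The 90 min arrays of DHODH already lay below all its vehicle arrays (−0.62 ± 0.21, adjusted p = 0.0925). BYSL, RRS1 and UTP15 are described with the ribosome genes.

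**Figure D2:**
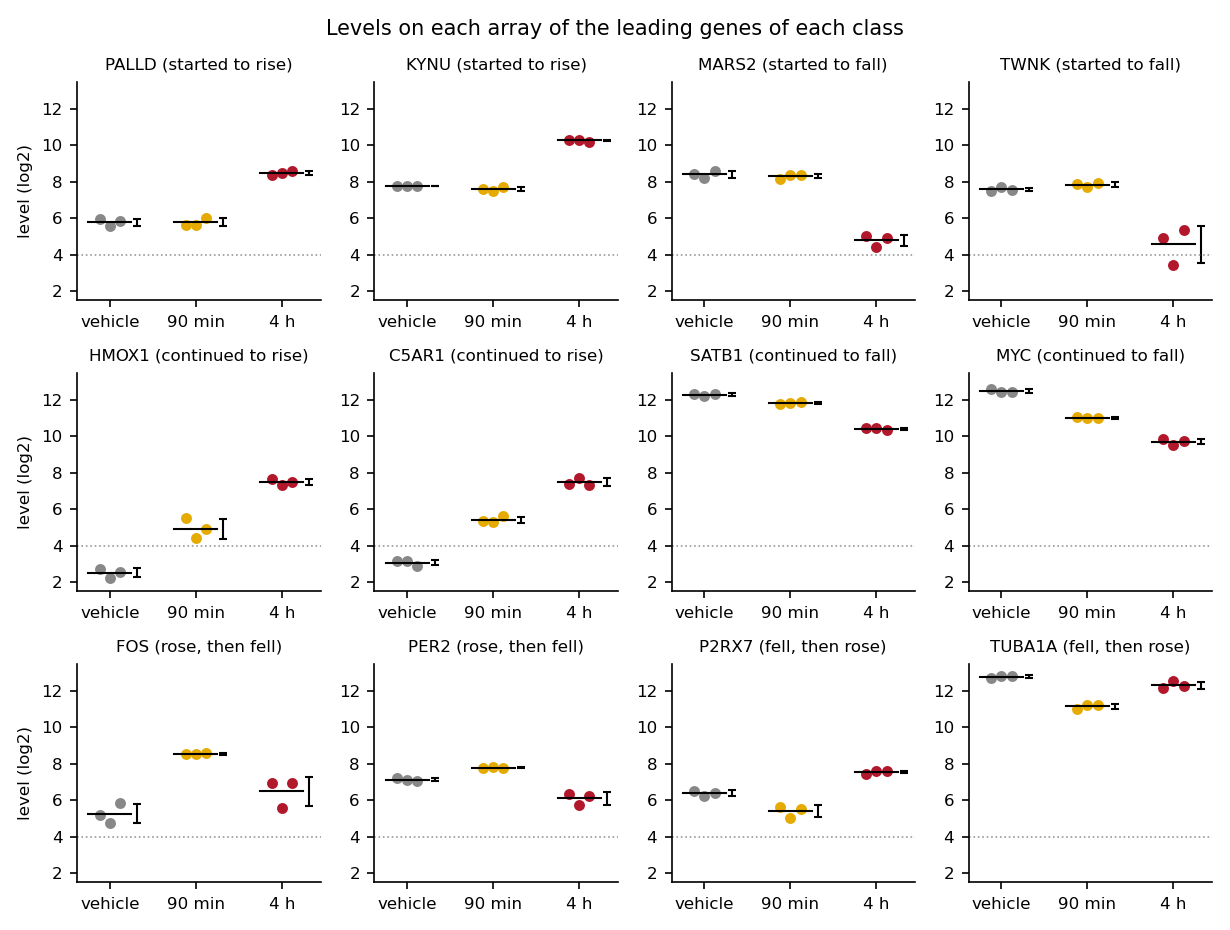
Log2 levels of 12 leading genes on the vehicle, JS-K 90 min and JS-K 4 h arrays, with points for arrays, lines for group means, bars for the SD of 3 arrays and a dotted line at 4. PALLD, KYNU, MARS2 and TWNK were called only after 90 min, HMOX1, C5AR1, SATB1 and MYC move in the same direction at both times, and FOS, PER2, P2RX7 and TUBA1A turn back.

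Genes that continued to rise were led by HMOX1, which encodes heme oxygenase, the heme-degrading enzyme induced by oxidative stress. Its levels were 7.66, 7.34 and 7.52 at 4 h, against 5.50, 4.41 and 4.91 at 90 min. The lowest 4 h array lay well above the highest 90 min array, and the rise was 5.95-fold (2.57 ± 0.30, adjusted p = 0.000186), after a difference of 2.41 ± 0.30 between 90 min and vehicle. C5AR1, the receptor for complement fragment C5a, rose 4.19-fold (2.07 ± 0.15) and CDKN1A, the cyclin-dependent kinase inhibitor p21, 3.78-fold (1.92 ± 0.13). EMP1, a membrane protein, rose 3.67-fold (1.87 ± 0.24, probe set mean 0.62, with 1 of 5 other probe sets called the same way), the early response gene IER3 3.57-fold (1.84 ± 0.22) and FHL2, a LIM-domain cofactor of transcription, 3.22-fold (1.69 ± 0.16). For FHL2 all 90 min arrays were under 4 (3.44, 3.35 and 3.31, against 5.20, 4.61 and 5.35 at 4 h), so its rise is a lower bound.

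Genes that continued to fall included MYC, a transcription factor of growth genes. It had levels of 9.85, 9.55 and 9.72 at 4 h, against 11.06, 10.98 and 10.99 at 90 min. The groups were separated by more than 1 log2 unit, and the 90 min arrays were themselves 1.48 ± 0.08 below vehicle. The fall after 90 min was 1.30 ± 0.08 (adjusted p = 2.38e-06). SATB1, an organiser of chromatin loops, had 10.46, 10.44 and 10.34 at 4 h, against 11.78, 11.81 and 11.88 at 90 min, a fall of 1.41 ± 0.08. ASH1L-AS1 (−1.66 ± 0.21) and MCM3AP-AS1 (−1.38 ± 0.28, probe set mean −0.73) are antisense RNAs, NUDT16 (−1.39 ± 0.19, probe set mean −0.46) encodes a nucleotide hydrolase, and PTCD2 (−1.37 ± 0.17) a mitochondrial RNA-binding protein. The antisense RNAs lie across from the genes in their names, and without a statement on strand their signal may include transcripts of those partners.

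Ribosomes are built in the nucleolus, where RNA polymerase I makes the large ribosomal RNA precursor and scores of assembly factors process it, while RNA polymerase III makes the small ribosomal RNA and transfer RNAs. Of 55 measured assembly genes, 47 (85.5%) fell between 90 min and 4 h and none rose, and the median difference was −0.83, against 0.05 over all genes. The called falls ran from −2.09 to −0.27, 19 of them at least 2-fold. Of the 47, 40 started to fall after 90 min, 6 had risen by 90 min and then fell, and 1 continued to fall. Leaving out each of the 6 arrays in turn left 43 to 47 called. The mean level of the 55 genes was 8.96, 8.66 and 8.99 on the 4 h arrays, against 9.76, 9.69 and 9.72 on the 90 min arrays and 9.58 to 9.62 in vehicle, so no 4 h array came near the other groups.

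BYSL, needed for the small ribosomal subunit, had levels of 8.69, 7.20 and 8.57 at 4 h, against 10.26, 10.28 and 10.20 at 90 min. Replicate 2 was the lowest 4 h array by more than 1 unit, and all 4 h arrays were below all 90 min arrays. BYSL fell by 2.09 ± 0.33 (adjusted p = 0.00153), and by 1.62 without that replicate. RRS1, which brings ribosomal proteins to the large subunit, had 8.58, 8.24 and 8.50 at 4 h, against 10.74, 10.41 and 10.37 at 90 min, a fall of 2.06 ± 0.12 (adjusted p = 1.23e-06). UTP15 (−1.87 ± 0.18) and WDR43 (−1.80 ± 0.28) belong to the complex that processes the precursor RNA of the small subunit.

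Of 21 measured genes of RNA polymerases I and III and their factors, 10 (47.6%) fell and none rose, with a median of −0.70. POLR1C, a subunit shared by both polymerases, had levels of 7.94, 7.23 and 7.89 at 4 h, against 9.65, 9.47 and 9.54 at 90 min (−1.87 ± 0.16, adjusted p = 1.74e-05). POLR1B, the large catalytic partner subunit of polymerase I, had 8.31, 8.11 and 8.34 at 4 h, against 10.11, 10.04 and 9.96 at 90 min (−1.78 ± 0.09, adjusted p = 7.73e-07). Both had groups that stood far apart. POLR1G fell by 1.47 ± 0.15 and POLR1E by 1.12 ± 0.10, and POLR1E alone of these 4 had already fallen by 90 min.

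**Figure D3:**
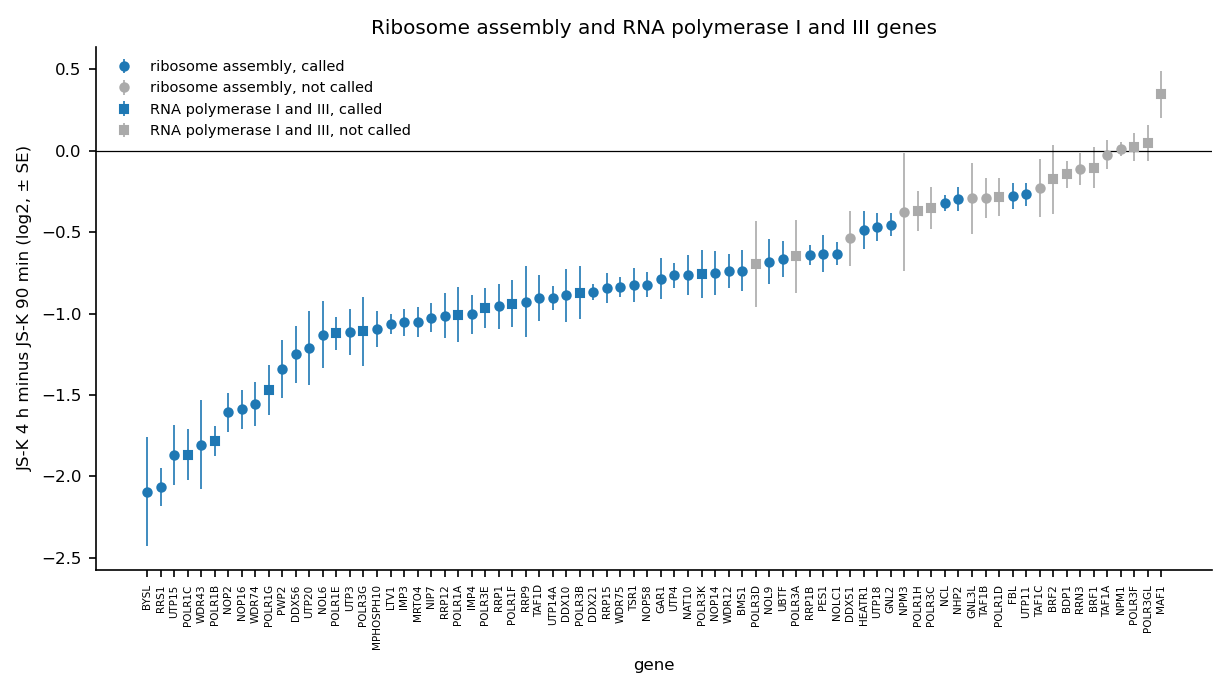
Log2 difference of JS-K 4 h minus JS-K 90 min ± SE for 55 ribosome assembly genes (circles) and 21 genes of RNA polymerases I and III (squares), in order of the difference, with called genes in blue. Called genes run from BYSL at −2.09 upwards, and no gene is called above 0.

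Of 50 measured DDX and DHX helicase genes, 21 (42.0%) fell and none rose (median −0.37). DDX31 (−1.25 ± 0.20, probe set mean −0.65), DDX56 (−1.25 ± 0.17, probe set mean −0.67) and DDX55 (−1.11 ± 0.17), helicases of ribosome assembly, followed DHX33. Of 27 genes of nucleotide synthesis, 11 fell and 1, MTHFD2 of the mitochondrial folate pathway, rose (0.31 ± 0.06, not called in the mean of its probe sets, adjusted p = 0.136, or with medians subtracted, 0.170). PPAT, which commits phosphoribosyl pyrophosphate to purine synthesis, had levels of 7.77, 7.27 and 7.74 at 4 h, against 9.24, 9.36 and 9.40 at 90 min, a 3.34-fold fall with widely separated groups (adjusted p = 7.13e-06, probe set mean −1.09). UMPS, which makes uridine monophosphate, fell by 1.03 ± 0.10 (probe set mean −0.46) and CTPS1, which makes cytidine triphosphate, by 0.82 ± 0.16. The count of 11 ranged from 6 to 15 as each of the 6 arrays was left out, with 6 without replicate 1 or 3 of the 90 min group and 7 without replicate 2 of the 4 h group.

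MYC and its partner MAX bind the E-box CACGTG, so the promoters of the assembly genes were searched for it. The promoters are RefSeq sequences of the build GRCh38.p14 that span 250 bases before and 50 after each gene's start, and both strands were searched. Of 49 assembly genes with a promoter in the table, 18 (36.7%) held the E-box, against 7.43% of all 27305 promoters and 8.90% of those of tested genes. Most of the 49 genes, 41, were called, and all 18 were among these 41. Whether the E-box bears on the fall was not tested. Of 12 measured genes of the MYC and MAX network itself, MYC was the only one called, and 2 were called without replicate 1 of 4 h or replicate 2 of 90 min. The 3 promoters with the E-box and the largest falls are shown, 5′ to 3′ on the gene's strand, with the motif in capitals. They are BYSL (chr6:41921249-41921548, plus strand), WDR43 (chr2:28894417-28894716, plus strand) and NOP2 (chr12:6568242-6568541, minus strand), the gene for a methyltransferase of ribosomal RNA that fell by 1.61 ± 0.12.
BYSL: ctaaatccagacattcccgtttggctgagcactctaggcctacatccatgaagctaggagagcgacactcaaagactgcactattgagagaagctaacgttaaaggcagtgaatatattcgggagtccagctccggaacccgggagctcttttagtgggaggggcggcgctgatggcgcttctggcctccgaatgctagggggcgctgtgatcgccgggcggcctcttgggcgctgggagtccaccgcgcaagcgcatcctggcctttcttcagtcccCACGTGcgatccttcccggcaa
WDR43: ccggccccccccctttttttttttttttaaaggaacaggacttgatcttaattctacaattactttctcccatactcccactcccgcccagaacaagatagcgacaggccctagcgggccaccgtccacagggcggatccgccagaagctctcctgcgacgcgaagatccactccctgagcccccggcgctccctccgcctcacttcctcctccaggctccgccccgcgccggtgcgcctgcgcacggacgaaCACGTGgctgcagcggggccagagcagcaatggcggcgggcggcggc
NOP2: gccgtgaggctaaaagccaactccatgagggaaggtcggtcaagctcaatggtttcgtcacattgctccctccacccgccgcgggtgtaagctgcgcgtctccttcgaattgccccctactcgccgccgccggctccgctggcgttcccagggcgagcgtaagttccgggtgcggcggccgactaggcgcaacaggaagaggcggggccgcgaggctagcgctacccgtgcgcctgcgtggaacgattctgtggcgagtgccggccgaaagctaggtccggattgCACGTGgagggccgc
In each, the E-box lies within 50 bases after the gene's start. A match of letters is a description and shows no binding.

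Of 75 measured mitochondrial ribosomal protein genes, 36 (48.0%) fell and none rose, with a median of −0.30 and called falls from −1.15 to −0.17. MRPL46 (−1.15 ± 0.21), MRPS26 (−1.07 ± 0.13, probe set mean −0.52), MRPS12 (−1.05 ± 0.10) and MRPL17 (−0.89 ± 0.09) led. Of 61 cytosolic ribosomal protein genes, 2 fell and none rose, with a median of −0.08, and those 2, RPL7L1 (−0.68 ± 0.07) and RPL22L1 (−0.46 ± 0.11), encode proteins that resemble ribosomal proteins. The mean level of the 61 genes was 12.83, 12.63 and 12.81 at 4 h, against 12.86, 12.80 and 12.81 at 90 min. Only replicate 2 of the 4 h group lay apart there. Of the cytosolic genes, 5 were called without replicate 1 of 4 h, and 1 without replicate 2 of 4 h or replicate 1 or 3 of 90 min. Omission of replicate 2 of 4 h left 29 mitochondrial genes called, and leaving out each of the 6 arrays gave 24 to 49. RPL22L1 was not called without that replicate (adjusted p = 0.0713) or without any 1 of the 90 min arrays (0.0601 to 0.0706).

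Of 38 measured genes of mitochondrial gene expression and DNA upkeep, MARS2 and TWNK among them, 14 (36.8%) fell and none rose (median −0.43), and leaving out each array gave 10 to 18. PUS1, which modifies mitochondrial and cytosolic transfer RNAs, had levels of 7.85, 7.11 and 7.69 at 4 h, against 8.99, 8.78 and 8.84 at 90 min, a fall of 1.32 ± 0.19. POLRMT, the mitochondrial RNA polymerase, had 7.61, 5.91 and 7.0 at 4 h, against 7.97, 8.04 and 7.98 at 90 min. Its groups did not overlap, but replicate 2 lay more than 1 unit below the other 4 h arrays. The fall of 1.16 ± 0.33 (adjusted p = 0.0462) was not called in the mean of its probe sets (−0.43, 0.0682), with array weights (−0.57, 0.0988), without that array (−0.70, 0.112), without replicate 3 of 4 h (0.0537), or without any 1 of the 90 min arrays (0.113 to 0.122). Of 40 genes of respiratory complex I and its assembly, 6 (15.0%) fell and none rose, led by the assembly factor NDUFAF4 (−0.82 ± 0.12). This share lay near the 14.7% lower among all genes with a mean of at least 4. The count of 6 was 3 without replicate 2 of 4 h or replicate 3 of 90 min and 2 without replicate 1 of 90 min. Of 45 SLC25 carrier genes of the inner membrane, 8 (17.8%) fell and 1 (2.22%) rose. The differences were −0.85 ± 0.13 for SLC25A16 (probe set mean −0.38) and 0.55 ± 0.12 for SLC25A24 (probe set mean 0.29, not called in the 6 arrays alone, adjusted p = 0.0559). The 8 falls were 5 without replicate 2 of 4 h or replicate 1 of 90 min and 4 without replicate 3 of 90 min.

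Immediate early genes split in their direction after 90 min. Of 38 measured, 22 had risen by 90 min against vehicle and 2 had fallen. At 4 h, 11 of the 38 were higher than at 90 min and 8 were lower, and the median difference was 0.08. Of the 11, 8 continued to rise and 3 started to rise. Of the 8, 7 had risen by 90 min and then fell. FOS, FOSB, EGR1 and EGR3 were among those that fell, and JUND, IER3 and TRIB1 among those that rose.

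FOS, the partner of JUN in AP-1, had levels of 6.95, 5.57 and 6.96 at 4 h, against 8.53, 8.52 and 8.62 at 90 min. It fell 4.19-fold (−2.07 ± 0.34, adjusted p = 0.00181) after a difference of 3.29 ± 0.34 between 90 min and vehicle, and at 4 h it was still above vehicle (mean 5.27) by the test. EGR3, a zinc finger transcription factor, had 5.22, 5.51 and 5.59 at 4 h, against 6.09, 6.69 and 6.69 at 90 min, and 3.09 to 3.10 in vehicle. It fell by 1.05 ± 0.22 (adjusted p = 0.00812) and kept most of its earlier rise. FOSB (−1.45 ± 0.23) and the nuclear receptor gene NR4A2 (−1.20 ± 0.26) fell to 4 h levels under 4, so these falls are lower bounds, and neither was called against vehicle at 4 h. EGR1 had 9.88, 9.79 and 10.08 at 4 h, against 11.62, 10.49 and 10.58 at 90 min, where replicate 1 stood high. Its fall of 0.98 ± 0.26 (adjusted p = 0.0326) was not called in 7 of 15 alternatives, among them those without replicate 1, 2 or 3 of 4 h (0.0648, 0.118 and 0.0517) and without that 90 min array (−0.62, 0.0801). JUN fell by 0.30 ± 0.08 (adjusted p = 0.0414) after a difference of 3.38 ± 0.08 between 90 min and vehicle, and this small fall was not called in 8 of 15 alternatives, among them those without any 1 of the 4 h arrays or without replicate 1 or 2 of 90 min (0.0537 to 0.175).

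JUND, a member of the JUN family, had levels of 12.39, 12.11 and 12.26 at 4 h, against 10.65, 10.90 and 10.85 at 90 min. The groups were clearly apart, and JUND continued to rise by 1.45 ± 0.08 (adjusted p = 1.08e-06). TRIB1, a pseudokinase that steers proteins to degradation, had 8.24, 7.96 and 8.48 at 4 h, against 6.99, 6.86 and 7.16 at 90 min, and 2.84 to 3.18 in vehicle. It rose by a further 1.22 ± 0.15 (probe set mean 0.44). SGK1, a kinase of stress and hormone signalling, rose by 1.16 ± 0.09. ATF3, a stress-induced factor of the AP-1 family, rose by 0.71 ± 0.20 (adjusted p = 0.0462), which was not called in 9 of 15 alternatives, the mean of its probe sets (0.25, 0.136) and those without replicate 1 or 3 of 4 h or without any 1 of the 90 min arrays among them (0.0578 to 0.149). KLF6, a Krüppel-like factor, held its level: it had 11.45, 11.26 and 11.32 at 4 h, against 11.31, 11.26 and 11.32 at 90 min, which overlap (0.04 ± 0.07, adjusted p = 0.629). With array medians subtracted, 7 of the 38 genes were higher and 7 lower. Leaving out each array gave 7 to 10 higher and 5 to 7 lower genes, with the lowest counts without replicate 2 of 4 h or replicate 1 of 90 min (5 lower) and without replicate 2 or 3 of 90 min (7 higher).

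**Figure D4:**
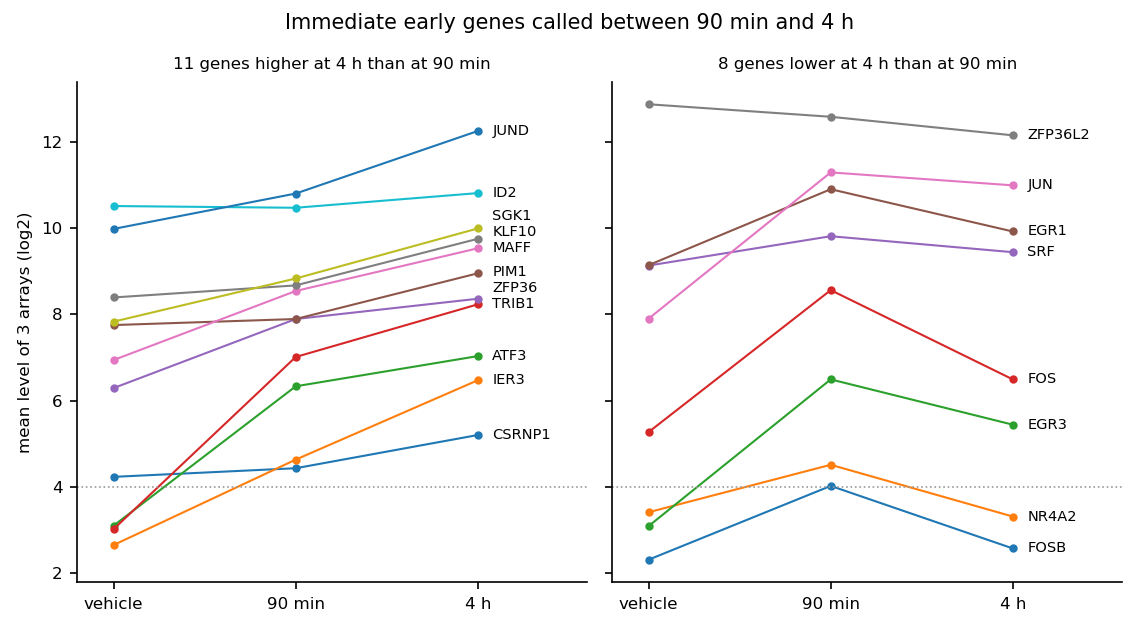
Mean log2 level of 3 arrays in vehicle, at JS-K 90 min and at JS-K 4 h for the immediate early genes called between 90 min and 4 h, 11 higher at 4 h (left) and 8 lower (right), with a dotted line at 4. In the right panel 7 genes peak at 90 min, while ZFP36L2 falls in both steps.

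Of 20 measured genes that restrain MAP kinase signalling, 3 (15.0%) rose and 3 (15.0%) fell (median 0.04). Without replicate 2 of 4 h, 5 rose. DUSP16 had 8.14, 7.06 and 8.26 at 4 h, against 6.14, 5.33 and 5.95 at 90 min, and SPRED2, an inhibitor of RAS signalling, rose by 0.67 ± 0.11 (probe set mean 0.26). DUSP2, a nuclear phosphatase of MAP kinases, had 2.81, 2.72 and 2.60 at 4 h, against 4.45, 4.26 and 4.34 at 90 min. Its groups were clearly separate, and its fall of 1.64 ± 0.14 ended in low signal, so it is a lower bound. DUSP7 fell by 0.79 ± 0.13.

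PER2, a clock gene, had levels of 6.35, 5.72 and 6.26 at 4 h, against 7.75, 7.81 and 7.77 at 90 min, and lay below vehicle (7.05 to 7.25) at 4 h. It fell by 1.67 ± 0.17 (probe set mean −0.82) after a difference of 0.64 ± 0.17 between 90 min and vehicle. SIK1, a kinase induced by cyclic AMP, fell by 1.49 ± 0.15 to levels under 4 (probe set mean −0.74, its other probe set not called), SLAMF8, a receptor of myeloid cells, by 1.38 ± 0.17 (probe set mean −0.75), and GPATCH4, a nucleolar protein, by 1.31 ± 0.15 (probe set mean −0.47). In the opposite direction, P2RX7, the ATP-gated channel of macrophages, had 7.46, 7.58 and 7.61 at 4 h, against 5.65, 5.04 and 5.55 at 90 min and 6.24 to 6.53 in vehicle. It rose by 2.14 ± 0.15 (adjusted p = 7.09e-06, probe set mean 1.36) to above vehicle, and its other probe set was not called. TUBA1A, an alpha-tubulin, had 12.15, 12.53 and 12.24 at 4 h, against 10.99, 11.22 and 11.24 at 90 min, and 12.70 to 12.83 in vehicle. It regained 1.16 ± 0.09 of a fall of 1.63 ± 0.09. FBXL20, an F-box protein, rose by 1.38 ± 0.18 (probe set mean 0.73), SRD5A1, a steroid reductase, by 1.19 ± 0.23 (probe set mean 0.75), YPEL5 by 1.15 ± 0.10 and ATOSA by 1.13 ± 0.13 (probe set mean 0.61).

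NRF2 is a transcription factor that is released from its inhibitor KEAP1 when reactive cysteines are modified, and it drives genes that make glutathione and remove electrophiles. Of 35 measured targets, 8 (22.9%) rose between 90 min and 4 h, 1 (2.86%) fell and 26 were not called. Of all genes 3.33% were higher and 7.25% lower, and of those with a mean of at least 4, 6.42% and 14.7%. The median difference of the targets was 0.06, and 7 of the 8 had already risen by 90 min. A pair of targets fell without replicate 1 of 90 min. The count of 8 was 12 after quantile normalization and 5 with array medians subtracted. SLC7A11, the cystine importer that feeds glutathione synthesis, had levels of 10.59, 10.54 and 10.60 at 4 h, against 9.01, 8.81 and 9.01 at 90 min. Arrays within each group were close and the groups far apart, and SLC7A11 rose 3.10-fold (1.63 ± 0.09, adjusted p = 1.07e-06). GCLM, the modifier subunit of the enzyme that limits glutathione synthesis, had 10.99, 10.86 and 10.93 at 4 h, against 10.06, 10.09 and 10.21 at 90 min, a rise of 0.81 ± 0.09 (adjusted p = 0.00013). Its catalytic partner GCLC had 9.01, 9.08 and 9.08 at 4 h, against 9.28, 9.22 and 9.27 at 90 min (−0.20 ± 0.11, adjusted p = 0.168). Its groups did not overlap, yet the difference did not pass the test. EPHX1, an epoxide hydrolase, rose by 0.92 ± 0.16. TXNRD1, thioredoxin reductase, rose by 0.40 ± 0.07 (probe set mean 0.24, not called with array medians subtracted, adjusted p = 0.0816).

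NQO1, a quinone reductase, rose by 0.31 ± 0.09 (adjusted p = 0.0437), and this was not called in 9 of 15 alternatives, those without replicate 1 or 3 of 4 h or without any 1 of the 90 min arrays among them (0.0501 to 0.123), with a difference of 0.20 without replicate 1 of 4 h. SRXN1, sulfiredoxin, differed by 0.43 ± 0.13 and was not called (adjusted p = 0.0554). CBR1, a carbonyl reductase, was the target that fell: it had 7.60, 6.99 and 7.58 at 4 h, against 8.17, 8.12 and 8.07 at 90 min, with no overlap (−0.73 ± 0.15, adjusted p = 0.00727).

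The antioxidant response element, searched as TGACNNNGC on both strands, was in 9 of 27 NRF2 target promoters (33.3%), against 13.6% of all promoters. It was in 4 of the 7 promoters of called targets. The 3 called targets with the element and the largest differences are shown with the element in capitals: GCLM (chr1:93909381-93909680, minus strand) and TXNRD1 (chr12:104215529-104215828, plus strand), which rose, and CBR1 (chr21:36069774-36070073, plus strand), which fell.
GCLM: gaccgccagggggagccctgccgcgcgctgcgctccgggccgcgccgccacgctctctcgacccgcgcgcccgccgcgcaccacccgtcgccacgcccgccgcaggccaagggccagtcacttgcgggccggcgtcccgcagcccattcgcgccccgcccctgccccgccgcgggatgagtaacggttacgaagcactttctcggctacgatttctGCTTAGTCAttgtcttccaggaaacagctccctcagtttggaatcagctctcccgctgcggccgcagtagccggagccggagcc
TXNRD1: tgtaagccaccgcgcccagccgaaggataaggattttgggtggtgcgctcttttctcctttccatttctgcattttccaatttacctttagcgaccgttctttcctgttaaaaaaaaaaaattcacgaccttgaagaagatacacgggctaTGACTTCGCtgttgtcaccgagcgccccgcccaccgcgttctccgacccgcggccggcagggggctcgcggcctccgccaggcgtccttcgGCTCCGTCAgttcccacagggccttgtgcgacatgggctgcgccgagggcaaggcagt
CBR1: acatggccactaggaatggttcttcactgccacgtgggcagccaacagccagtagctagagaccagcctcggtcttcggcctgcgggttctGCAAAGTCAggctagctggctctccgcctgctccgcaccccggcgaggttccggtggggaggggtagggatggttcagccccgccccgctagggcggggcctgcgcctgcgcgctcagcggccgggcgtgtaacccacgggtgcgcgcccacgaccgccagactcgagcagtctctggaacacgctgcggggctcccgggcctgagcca
GCLM and CBR1 hold the element 1 time and TXNRD1 2 times. CBR1 was the only target called lower, and whether the element bears on direction was not tested.

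Of 29 glutathione genes, 3 (10.3%) rose and 4 (13.8%) fell, and these counts were the same as each of the 6 arrays was left out. Beside SLC7A11 and GCLM, CTH, which makes cysteine from cystathionine, rose by 0.64 ± 0.12 after a fall by 90 min. MAT2A, which makes S-adenosylmethionine, had levels of 10.32, 10.29 and 10.35 at 4 h, against 11.11, 11.22 and 11.26 at 90 min (−0.88 ± 0.06, adjusted p = 5.09e-06), with tight groups far apart. CHAC2, which degrades glutathione, fell by 0.62 ± 0.10 and GLRX5, a mitochondrial glutaredoxin, by 0.41 ± 0.07. Of 23 genes of glutathione transferases and conjugate export, whose enzymes include those that activate JS-K, none was called, and 11 of them had means under 4. Of 22 genes of the thioredoxin and peroxiredoxin systems, TXNRD1 was the only one called. There were 3 rises without replicate 2 of 4 h, 2 without replicate 1 of 90 min and 5 after quantile normalization. TXNIP, which binds thioredoxin, had 8.07, 8.02 and 7.91 at 4 h, against 7.77, 7.83 and 7.88 at 90 min (0.17 ± 0.08, adjusted p = 0.139). Its 90 min level was 1.19 ± 0.08 below vehicle. Of 24 genes of iron and heme, HMOX1 alone rose (2 genes rose without replicate 1 of 4 h) and 4 fell, among them HMOX2, the constitutive heme oxygenase (−0.66 ± 0.10), and STEAP3, a ferric reductase (−0.60 ± 0.10), which had risen by 90 min.

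Of 25 heat shock genes, 3 rose and 4 fell (median 0.02). HSPA6, a strictly inducible HSP70 gene, had levels of 6.55, 6.06 and 5.95 at 4 h, against 4.98, 4.65 and 5.33 at 90 min, a rise of 1.20 ± 0.21 with no overlap. BAG3, a cochaperone of selective autophagy, rose by 0.71 ± 0.14, and HSPA4, a nucleotide exchange factor, fell by 0.55 ± 0.07. The 4 falls were 1 with array medians subtracted, without replicate 2 of 4 h and without replicate 2 or 3 of 90 min, and 2 without replicate 1 of 90 min.

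Of 31 measured ER chaperone genes, 7 (22.6%) were lower at 4 h than at 90 min, none was higher and 24 were not called. By 90 min 12 had risen, of which 5 then fell and 7 were not called between 90 min and 4 h. SDF2L1, an ER cochaperone, had 9.12, 8.30 and 9.34 at 4 h, against 10.18, 9.83 and 9.99 at 90 min, which do not overlap (−1.08 ± 0.20). DNAJB9, which restrains the stress sensor IRE1, fell by 0.98 ± 0.12. Neither was called against vehicle at 4 h. The count of 7 was 4 without replicate 2 of 4 h and 3 without replicate 1 of 90 min, and 3 to 10 over all 6 omissions.

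ATF4, the factor of the integrated stress response, and its targets showed 7 rises (15.6%) and 1 fall (2.22%) among 45 genes. The fall was that of ATF4 itself (−0.31 ± 0.08, adjusted p = 0.0191). The 7 were 12 after quantile normalization and 3 with array medians subtracted. The 1 fall was 4 without replicate 1 and 3 without replicate 3 of 4 h, 2 after quantile normalization, and 0 without replicate 1 or 3 of 90 min and with array medians subtracted. By 90 min 17 of the 45 had fallen, and 14 of these were not called after it. ASNS, asparagine synthetase, had 7.17, 6.13 and 7.11 at 4 h, against 6.91, 6.76 and 6.82 at 90 min, with overlap (−0.03 ± 0.25, adjusted p = 0.938), after a difference of −1.48 ± 0.25 between 90 min and vehicle. DDIT3, also known as CHOP, had 7.12, 6.71 and 6.77 at 4 h, against 6.75, 6.79 and 6.79 at 90 min, again with overlap (adjusted p = 0.591). JDP2, a repressor of the AP-1 family, rose by 0.62 ± 0.09 (but 0.36 and not called in the mean of its probe sets, adjusted p = 0.0928).

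Autophagy genes rose in 8 of 36 cases (22.2%) and fell in 1. WIPI1, which acts at forming autophagosomes, had levels of 8.35, 7.84 and 8.28 at 4 h, against 7.19, 6.79 and 7.20 at 90 min, a rise of 1.10 ± 0.15 with no overlap, after a fall by 90 min. OPTN, a cargo receptor, rose by 0.90 ± 0.13, also after a fall. MAP1LC3B, which encodes the membrane marker LC3B, rose by 0.75 ± 0.09 and SQSTM1, the cargo receptor p62, by 0.62 ± 0.07 (probe set mean 0.38). Leaving out each array gave 6 to 10 rises, and 2 falls without replicate 1 of 4 h. Of 19 genes of stress-linked ubiquitin enzymes, 4 (21.1%) rose and 2 (10.5%) fell, and RNF19B, a ubiquitin ligase, rose by 1.72 ± 0.22. The rises were 7 after quantile normalization. The falls were 4 without replicate 1 of 4 h, 1 without replicate 2 or 3 of 4 h or replicate 3 of 90 min, and 0 without replicate 1 or 2 of 90 min. Of 42 proteasome genes, 7 fell and none rose (median −0.18), PSMB5, a catalytic subunit, by 0.52 ± 0.11. The proteasome count was 5 to 16 as each array was left out, with 16 without replicate 1 of 4 h. PSMG4, a chaperone of proteasome assembly, fell by 0.65 ± 0.08 in its brightest probe set, but the mean of its probe sets gave 0.04 (adjusted p = 0.773).

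Of 45 measured genes of myeloid receptors and maturation, 13 (28.9%) rose, 1 fell and 31 were not called, and the median difference was 0.07. The fall was lost with array medians subtracted, without replicate 2 of 4 h and without any 1 of the 90 min arrays, and there were 2 without replicate 1 of 4 h. The count of 13 was the same under both other scalings and without each of the 6 arrays. Of the 13, 10 continued a rise and 3 started, and 9 rose at least 2-fold. The mean level of the 45 genes was 7.22, 7.14 and 7.14 on the 4 h arrays, against 6.83, 6.80 and 6.87 on the 90 min arrays and 6.13 to 6.14 in vehicle, so it stepped up at each time. C5AR1 had levels of 7.41, 7.73 and 7.32 at 4 h, against 5.35, 5.28 and 5.63 at 90 min. PLAU, the urokinase protease, had 10.97, 10.60 and 10.82 at 4 h, against 9.19, 9.25 and 9.41 at 90 min, and started to rise at that stage (1.51 ± 0.10, adjusted p = 3.01e-06). Both genes were well separated between the groups. This list was drawn up with results of these arrays known, so its count is no independent evidence of direction.

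Inflammatory genes under NF-κB rose in 7 of 33 cases (21.2%) and fell in 1 (3.03%). PLAUR, the urokinase receptor, rose by 1.23 ± 0.10 and CD83, a surface protein of activated myeloid cells, by 1.27 ± 0.10. PTGS2, the inducible cyclooxygenase, had levels of 5.12, 4.06 and 5.09 at 4 h, against 3.21, 3.25 and 3.09 at 90 min. All its 90 min arrays were in low signal, so its rise of 1.57 ± 0.26 (probe set mean 0.81) is a lower bound. NFKBIA, the inhibitor that NF-κB itself induces, rose by 0.90 ± 0.16 (probe set mean 0.49). CXCL8, the chemokine interleukin-8, had 11.84, 11.82 and 11.93 at 4 h, against 11.06, 10.98 and 11.01 at 90 min and 6.33 to 6.47 in vehicle. It rose by 0.85 ± 0.06 (adjusted p = 5.09e-06), a small step after a difference of 4.62 ± 0.06 between 90 min and vehicle. TNFAIP8 fell by 0.63 ± 0.08 (probe set mean −0.40). Of 29 interferon-stimulated genes, IRF9 alone was called (1.24 ± 0.26, from a 90 min mean under 4 and not called in the 6 arrays alone, adjusted p = 0.0539), and 2 were called without replicate 2 of 4 h.

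Of 26 transcription factors of myeloid identity, 7 (26.9%) fell, 3 (11.5%) rose and 16 were not called. Only 3 of the 26 had means under 4. The closer shares for comparison are therefore 14.7% lower and 6.42% higher, those for levels averaging 4 or more. Over all genes the shares were 7.25% and 3.33%. Of the 7 falls, 4 continued a fall by 90 min. MEIS1, a homeobox factor of leukemic cells, had levels of 8.42, 8.47 and 8.52 at 4 h, against 9.53, 9.34 and 9.43 at 90 min and 10.19 to 10.37 in vehicle, so it stepped down at each time (−0.96 ± 0.08, adjusted p = 1.51e-05). MYB, a factor of progenitor cells, fell by 0.91 ± 0.09 and IRF8, a factor of monocyte development, by 0.76 ± 0.09. The 3 rises, of FLI1, ID2 and ZEB2, were all lost without replicate 2 of 4 h (adjusted p = 0.0692, 0.130 and 0.0944) and without replicate 3 of 90 min. The list had 1 rise without replicate 1 of 90 min or with array medians subtracted, and 5 after quantile normalization. In the mean of their probe sets FLI1 differed by 0.04 (adjusted p = 0.633) and ZEB2 by 0.17 (adjusted p = 0.140). Of 12 azurophil granule genes none was called.

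Among 38 genes that prepare and carry out S phase, 12 (31.6%) fell and 1 rose, with a median of −0.22. MCM3, a subunit of the replicative helicase, had levels of 11.46, 10.98 and 11.37 at 4 h, against 11.82, 11.74 and 11.80 at 90 min (−0.52 ± 0.10, adjusted p = 0.00539), without overlap. ORC2, of the origin recognition complex, fell by 0.76 ± 0.17, which was not called without replicate 3 of 90 min (adjusted p = 0.0601). The count of 12 was 4 without replicate 1 or 3 of 90 min, 7 without replicate 2 of either group, 8 without replicate 3 and 15 without replicate 1 of 4 h. The 1 rise was lost without replicate 3 of 4 h, without replicate 1 or 2 of 90 min and with array medians subtracted, and there were 2 after quantile normalization. Of 47 genes of G2 and mitosis, 24 had risen by 90 min. At 4 h 8 (17.0%) were higher than at 90 min and 3 (6.38%) lower. The 8 were 15 after quantile normalization and 3 with array medians subtracted. Without replicate 1 of 90 min 5 were higher and 0 lower, and 1 was lower without replicate 2 or 3 of 4 h or replicate 2 of 90 min. ECT2 (0.59 ± 0.09, but 0.25 and not called in the mean of its probe sets, adjusted p = 0.0615) and ANLN (0.40 ± 0.08), which act in cytokinesis, continued to rise. The cell cycle homology region TTTGAA was in 30 of 41 promoters of this list (73.2%), against 15.4% of all promoters.

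Of 19 genes of cyclins and inhibitors of cyclin-dependent kinases, 4 (21.1%) rose, 2 (10.5%) fell and 13 were not called. The falls were 1 without replicate 2 or 3 of 4 h or any 1 of the 90 min arrays. The inhibitor CDKN1A had levels of 8.85, 8.68 and 8.37 at 4 h, against 6.59, 6.67 and 6.87 at 90 min and 5.21 to 5.22 in vehicle. The 3 groups were far apart. CDKN2D, the inhibitor p19, rose by 0.84 ± 0.15 (probe set mean 0.44). CCND2, cyclin D2, had 8.04, 7.55 and 7.61 at 4 h, against 8.89, 8.81 and 8.93 at 90 min, with a difference of −1.14 ± 0.13 (but −0.40 and not called in the mean of its probe sets, adjusted p = 0.0993), and CCNE2, cyclin E2, rose by 0.66 ± 0.11. Of 28 p53 targets, 4 (14.3%) rose and 4 (14.3%) fell (median 0.05). Beside CDKN1A, CCNG2, cyclin G2, rose by 1.04 ± 0.07 after a fall by 90 min, and PMAIP1, the BH3-only protein NOXA, by 1.04 ± 0.13, while AEN, a nuclease, fell by 1.02 ± 0.17 and TRIAP1, a small protein that binds HSP70, by 0.86 ± 0.08. As background, U937 cells are known to lack working p53.

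Of 18 proapoptotic genes, 3 (16.7%) rose and 3 (16.7%) fell. The rises were 1 with array medians subtracted, and the falls were 1 with array medians subtracted, without replicate 2 or 3 of 4 h or replicate 1 or 3 of 90 min, and 5 without replicate 1 of 4 h. PMAIP1 had levels of 10.34, 10.29 and 10.58 at 4 h, against 9.46, 9.24 and 9.40 at 90 min. BCL2L11, the BH3-only protein BIM, had 8.52, 8.13 and 8.55 at 4 h, against 9.52, 9.58 and 9.71 at 90 min, a 2.30-fold fall (−1.20 ± 0.11, adjusted p = 3.73e-05, probe set mean −0.63). These BH3-only genes thus moved in opposite directions with no overlap of arrays in either. Among 8 survival genes, XIAP, an inhibitor of caspases, rose by 0.60 ± 0.08 (probe set mean 0.32) and BCL2A1 by 0.27 ± 0.05 (not called with array medians subtracted, adjusted p = 0.193). MCL1 had 11.56, 11.32 and 11.38 at 4 h, against 11.14, 11.29 and 11.24 at 90 min (0.20 ± 0.07, adjusted p = 0.0924). Its groups did not overlap, though by a narrow gap, and it had been 0.88 ± 0.07 above vehicle at 90 min.

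Of 23 genes of cholesterol synthesis and its control, 9 (39.1%) were lower at 4 h than at 90 min, 1 was higher and 13 were not called. By 90 min 17 had fallen against vehicle, of which 8 continued to fall, 8 were not called between 90 min and 4 h and 1 rose. INSIG1, which retains the sterol sensor in the ER and is itself a target of the sterol factor SREBP, had levels of 10.77, 11.12 and 10.86 at 4 h, against 11.75, 11.86 and 11.88 at 90 min and 12.96 to 13.06 in vehicle. It stepped down at each time (−0.91 ± 0.08, adjusted p = 2.92e-05). HMGCS1, which makes the precursor of mevalonate, fell by 0.84 ± 0.11 and MSMO1, a demethylating oxidase, by 0.77 ± 0.06. INSIG2, which is not driven by SREBP in the same way, had 8.73, 8.87 and 8.83 at 4 h, against 8.27, 8.03 and 8.16 at 90 min and 8.84 to 9.04 in vehicle. It rose by 0.66 ± 0.08 and was not called against vehicle at 4 h. Leaving out each array gave 7 to 12 falls, and 2 genes rose after quantile normalization.

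Of 23 glycolysis genes, 1 (4.35%) rose and 2 (8.70%) fell, against 3.33% and 7.25% of all genes. Among genes with a mean of at least 4, 6.42% rose and 14.7% fell. The glycolysis rise was that of SLC2A3, a glucose transporter, with 8.30, 8.31 and 8.34 at 4 h, against 7.29, 7.52 and 7.47 at 90 min (0.89 ± 0.13). The falls, of SLC2A1 and HK2 (probe set mean −0.60), were not called without replicate 2 of 4 h (adjusted p = 0.0711 and 0.117) or without replicate 1 or 2 of 90 min, and 1 was called without replicate 3 of either group and under both other scalings. In the mean of its probe sets SLC2A1 differed by −0.30 (adjusted p = 0.0523), against −0.67 in its brightest. Of 31 genes of the pentose phosphate pathway, NADPH and the TCA cycle, 1 (3.23%) rose and 2 (6.45%) fell. These shares lay near those of all genes, 3.33% and 7.25%, but only 1 of the 31 had a mean under 4. They lay below the 6.42% and 14.7% for levels averaging 4 or more. The rise was lost without replicate 1 or 3 of 90 min and with array medians subtracted, there were 2 after quantile normalization, and 4 genes fell without replicate 1 of 4 h. Of 27 genes of hypoxia-inducible factor (HIF) and its targets, 5 (18.5%) rose and 2 (7.41%) fell. The rises included genes of HIF itself. EPAS1 encodes the subunit HIF2A (0.57 ± 0.08, probe set mean 0.25). ARNT encodes another HIF subunit (0.48 ± 0.08, not called in the mean of its probe sets, adjusted p = 0.136). The falls were 0 without replicate 2 of 4 h or replicate 1 or 2 of 90 min, and 1 without replicate 3 of either group or under either other scaling. Of 13 metallothionein and zinc genes, 2 transporters (15.4%) fell, SLC30A7 by 0.68 ± 0.10. The count was 1 under both other scalings and without any 1 of the arrays except replicate 3 of 4 h.

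Of 20 genes of transcription elongation, 2 rose and 4 fell. The falls were 8 without replicate 1 of 4 h, and the rises 1 without replicate 3 of 4 h, without replicate 1 or 3 of 90 min and with array medians subtracted. ELL2, an elongation factor, had levels of 5.53, 5.35 and 6.07 at 4 h, against 4.40, 4.74 and 4.54 at 90 min, a rise of 1.09 ± 0.19 without overlap (probe set mean 0.27). HEXIM1, an inhibitor of the elongation kinase P-TEFb, fell by 0.41 ± 0.07 after a rise by 90 min (but −0.26 and not called in the mean of its probe sets, adjusted p = 0.104). Of 450 ZNF genes, 36 (8.0%) fell and 8 (1.78%) rose, against 7.25% and 3.33% of all genes. There were 21 falls without replicate 2 of 4 h and 22 without replicate 1 or 3 of 90 min. The 8 rises were 5 without replicate 2 and 3 without replicate 3 of 4 h, 3 without replicate 2 and 2 without replicate 1 or 3 of 90 min, and 2 with array medians subtracted. ZNF202 (−1.40 ± 0.13, probe set mean −0.69) and ZNF121 (−1.26 ± 0.10), zinc finger genes, fell and remained called in each of 15 alternatives. Of 48 histone genes, H1-10 alone was called (0.48, adjusted p = 0.0356), and it was not called in 8 of 15 alternatives, those without replicate 1 or 3 of either group among them. Of 13 SNHG host RNAs, which carry small nucleolar RNAs in their introns, 3 fell, SNHG17 by 1.01 ± 0.13 and SNHG19 by 0.90 ± 0.17. Of 1000 antisense and divergent RNAs, 852 of which had means under 4, 10 (1.0%) rose and 13 (1.3%) fell. Both shares lay under those of all genes, 3.33% and 7.25%. The rises were 17 without replicate 3 of 4 h, 6 without replicate 1 or 3 and 5 without replicate 2 of 90 min, and 3 with array medians subtracted. The falls were 9 to 17 as each array was left out.

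**Figure D5:**
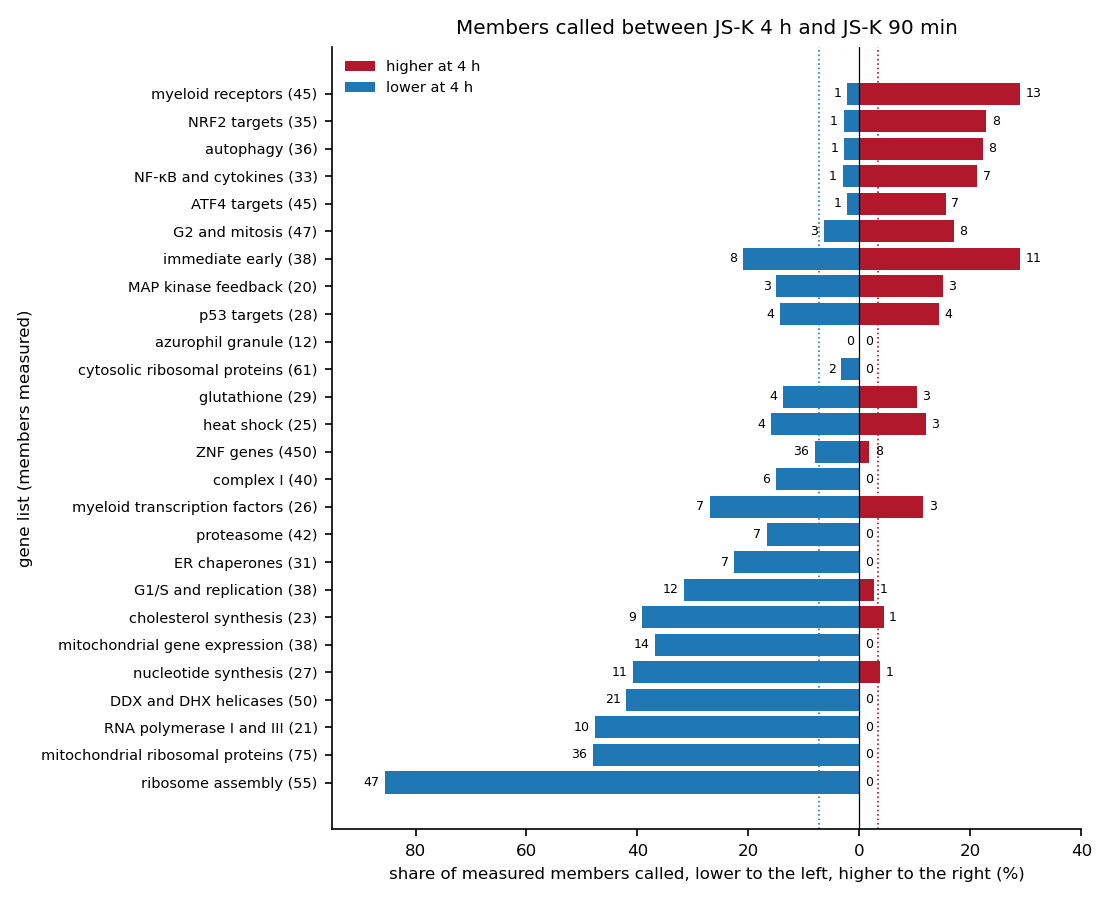
Share of the measured members of 26 gene lists that were called lower (blue, left) or higher (red, right) at JS-K 4 h than at JS-K 90 min, with counts at the bar ends, the number measured in parentheses and dotted lines at the shares of all genes (7.25% lower, 3.33% higher). Ribosome assembly reaches 85.5% lower, and myeloid receptors and immediate early genes each reach 28.9% higher.

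Promoters of other lists held their motifs at higher shares than all promoters too. The composite element TGATGNAA was in 10 of 38 promoters of ATF4 and its targets (26.3%, against 3.67%), but in none of the 7 of called genes. The heat shock element, inverted repeats of its core, was in 5 of 22 heat shock promoters (22.7%, against 0.487%), 1 of them of the 6 called genes, HSPA6. The cyclic AMP response element TGACGTCA was in 2 of 31 immediate early promoters (6.45%, against 1.98%, or 2.665% of promoters of tested genes). These were JUND and MAFF, which both continued to rise. The sterol element TCACNCCAC was in 1 of 21 sterol promoters (4.76%, against 1.15%), and in none of the 9 of called genes. The shares of these last 2 motifs rest on 2 promoters and 1 promoter.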

How the data were processed

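Total RNA of U937 cells was labelled from random hexamers with an Affymetrix whole-transcript kit, per the labels' protocols, and measured on 12 Affymetrix arrays. The authors deposited log2 levels per probe set made with GCRMA in Affymetrix Expression Console, per the submitters' processing notes. GCRMA subtracts probe-sequence background and normalizes probe values between arrays, and low levels are compressed. Groups came from the sample titles. Each gene was read from its probe set with the highest mean, which left 19775 genes. limma 3.58.1 in R 4.3.3 (empirical Bayes with an intensity trend) was fitted over all 12 arrays, 24 h arrays included, which share the spread estimate, with Benjamini-Hochberg adjustment over all genes and a threshold of 0.05. Named genes were the called genes with the largest difference in each class (8 for genes that started, 6 for the others) whose arrays did not overlap and whose higher mean was at least 4, up to 4 called members of each list per direction, and a set of genes of known roles. NOP2 and MAFF were named for their promoters and ZFP36L2 as the exception in its list. The members, gene lists and rules were chosen with earlier results of these data known. Alternatives covered scaling, probe set choice, filters, array weights, arrays fitted and leaving out each array. In data simulated for this comparison on 19775 genes, the fit called 79 of 100 genes given a 2-fold change. It called 99 of 100 given a 4-fold change, and 10 of 188 calls (5.32%) were unchanged genes. Whether the simulated noise resembles that of these arrays was not tested. Replicate 2 of the 4 h group had an array weight of 0.055, and 10224 genes had a mean under 4. The simulated shares therefore hold for the simulated data and give no error rate for the calls reported here. The number of arrays limits the precision. The labels give no pairing of arrays, so the replicate numbers were not taken as pairs. Deviations of same-numbered 4 h and 90 min arrays had correlations of 0.088, 0.297 and 0.186, against −0.271 to 0.081 for other pairs. Plots used matplotlib 3.10.9 under Python 3.11.15.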

Additional observations from a re-analysis of the deposited data

Results flagged for a closer look

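The poly-A spike probe sets, which report bacterial transcripts and enter no gene comparison, carried a signal at 4 h that was lacking at 90 min. Their mean was 7.02 on the JS-K 4 h arrays, against 3.08 on the JS-K 90 min arrays and 3.04 on the vehicle arrays. The hybridization spikes, added later in the procedure, averaged 9.83 at 4 h, against 9.57 at 90 min. Sample handling and exposure time cannot be told apart.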

How the results depend on the processing

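Of 209 named genes that were called, 134 stayed called under each of 15 alternatives and 33 were not called without replicate 2 of the 4 h group. PSMG4 changed direction, from a fall by 0.65 in its brightest probe set to 0.04 in the mean of its probe sets (adjusted p = 0.773). Counts depended on scaling. Quantile normalization gave 1101 higher genes, of which 692 started to rise and 254 continued to rise, and 155 genes fell and then rose. With array medians subtracted, 337 genes were higher, 246 started to rise, 66 continued to rise, 80 continued to fall, 83 rose and then fell, and 25 fell and then rose. Array weights, 0.055 for replicate 2 of the 4 h group, gave 1401 higher genes, 756 that started to rise, 310 that continued to rise, 327 that continued to fall, 341 that rose and then fell and 335 that fell and then rose. A fit of the 6 arrays alone called 385 higher and 842 lower genes, and a test against a fold of 1.5 called 59 and 69. Among genes with a mean of at least 4, refitted on their own, 244 continued to fall, 822 were higher and 1862 lower.

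Leaving out each array in turn gave 461 to 785 higher and 915 to 1825 lower genes. The range was 321 to 471 for genes that started to rise, 723 to 1445 for those that started to fall, 86 to 189 for those that continued to rise and 75 to 203 for those that continued to fall. It was 68 to 177 for genes that rose and then fell and 38 to 125 for those that fell and then rose. The cause was not tested.

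A fit with the replicate number as a block called 703 higher and 1497 lower genes, and 9 named genes lost their call. The deviations of same-numbered 4 h and 90 min arrays had correlations of 0.088, 0.297 and 0.186, and each 4 h array correlated best with its own number, a hint from the data and not from the design. A majority of the genes, 10224 of 19775, had a mean under 4, where a change is compressed and a difference that misses the threshold says little.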
